A study of Mus musculus with 14 samples.

Results

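Respiratory complex I takes electrons from NADH and hands them to ubiquinone, and it uses the energy released to pump protons out of the mitochondrial matrix. It is built from core subunits, which carry the flavin, the iron-sulphur clusters and the proton channels, and from many accessory subunits that surround the core. Its parts are commonly divided into an NADH-binding N module at the tip of the matrix arm, a ubiquinone-reducing Q module at the foot of that arm, and a membrane arm with a proximal and a distal side. Skeletal muscle fibres hold large amounts of the complex, more in oxidative than in glycolytic fibres. The genes described here were taken from the deposited expression table by their names, as every gene whose symbol begins with Ndufa, Ndufb, Ndufc, Ndufs or Ndufv followed by a number. The rule found 37 genes among 24354, and all 37 were among the 9204 genes that could be tested. Assembly factors, named Ndufaf, do not match the rule.

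The names cover 35 subunits of complex I and 2 genes that match by name alone. Ndufa4 encodes a protein now counted as a subunit of cytochrome c oxidase (complex IV), and Ndufa4l2 encodes its relative, known as a target of hypoxia signalling. They were kept in all counts of 37, and counts of 35 leave them out. All 7 core subunits encoded in the nucleus were present. The accessory subunit Ndufab1, which the rule does not reach, is given with the assembly factors below. Core subunits encoded in mitochondrial DNA and Ndufb1 were not found by name among the genes measured, and so were not analysed here.

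RNA was sequenced from quadriceps, a thigh muscle of mainly fast fibres, of male C57BL/6 mice aged 4 months. The mice were kept on normal chow and a normal light and dark schedule and received no treatment. The groups were 3 libraries labelled HDAC3 wild-type (WT) and 3 labelled HDAC3 knock-out (KO), all from resting mice at ZT10 (zeitgeber time, the hour of the light schedule). HDAC3 is the histone deacetylase of the NCoR and SMRT corepressor complexes. The sources used here do not give how the gene was removed, in which cells, or whether each library came from its own animal, so p-values measure the spread between these libraries, which may be technical. The tissue is bulk muscle, in which fewer cells of a type and less RNA per cell cannot be told apart.

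Hdac3 itself was at 33.3, 31.0 and 23.7 FPKM in WT and at 5.51, 6.29 and 8.16 in KO, which did not overlap (limma log2 difference of -1.99 ± 0.17 SE, adjusted p = 0.00487). FPKM counts sequenced fragments relative to a gene's length and to the size of its library, so levels of different genes can be set side by side. Relative depth, read from genes under 0.3 FPKM, ran from 0.660 times that of WT replicate 1 in KO replicate 1 to 1.02 times in WT replicate 3. The summed level of 8 skeletal muscle fibre markers was 44368 to 55122 FPKM in WT and 43843 to 53339 in KO, and none of the 7 that were tested was called by limma or by the authors. Markers of slow and oxidative fibres summed to 76.5 to 143 FPKM in WT and 103 to 198 in KO, with none of 6 tested called by limma and 1 by the authors. Markers of endothelium, fibroblasts, macrophages, adipocytes, satellite cells, smooth muscle and nerve had no call by limma either, while the authors called 2 of 5 fibroblast markers and the 1 satellite cell marker tested. The satellite cell markers summed to 3.67 to 5.83 FPKM in WT and to 1.72 to 2.58 in KO, which did not overlap. Neutrophil markers stood at 508 FPKM in WT replicate 2, against 3.39 to 9.43 in the other libraries, with 4 of 4 tested called by the authors and none by limma. The part of any of these in the values below was not tested, beyond the values given without each library.

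Complex I transcripts were abundant in every library, and their totals in the genotypes differed by less than the spread of the KO libraries. Summed over the 35 subunits, the level was 11313, 11366 and 11842 FPKM in WT replicates 1, 2 and 3 and 11000, 12107 and 12289 FPKM in KO replicates 1, 2 and 3. The group means were 11507 ± 291 (SD, n = 3) and 11799 ± 697 (SD, n = 3), and the KO libraries lay on both sides of the WT range. As a share of all FPKM this was 2.46% ± 0.0409 in WT and 2.44% ± 0.0613 in KO. The 7 core subunits alone summed to 1913 ± 83.0 FPKM in WT and 1853 ± 160 in KO. KO replicate 1, the lowest of the 6 sums, was also the lowest library in the fibre markers, at 43843 FPKM against 53333 and 53339 in the other KO libraries. It was not set apart from WT replicates 1 and 2, at 44861 and 44368 FPKM.

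Subunits that are assembled into the same complex differed widely in transcript level. In WT the median of the 35 subunits was 256 FPKM, and their means ran from 21.9 for Ndufa11 to 961 for Ndufa3, both of them small proteins of the membrane arm. Ndufa4, the complex IV subunit that matches by name, was the highest of all 37, at 1848, 1777 and 1465 FPKM in WT and 1381, 1460 and 1525 in KO. Ndufa3 followed, at 946, 987 and 951 FPKM in WT and 988, 960 and 1062 in KO. Ndufb9, of the distal membrane arm, stood next, at 913, 964 and 816 FPKM in WT and 1003, 987 and 1037 in KO. The KO libraries of Ndufb9 were all above the WT libraries, those of Ndufa3 overlapped them, and those of Ndufa4 overlapped them at WT replicate 3.

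At the other end of the order, Ndufa4l2 was at 1.70, 2.30 and 3.54 FPKM in WT and 1.61, 4.08 and 5.04 in KO, the only member under 10 FPKM. Ndufa11, which sits where complex I meets the supercomplex partners, was at 16.6, 20.0 and 29.2 FPKM in WT and 13.4, 20.1 and 15.5 in KO. Ndufs5, an intermembrane-space subunit of the proximal membrane arm, was at 47.8, 47.2 and 99.0 FPKM in WT and 21.0, 28.9 and 83.2 in KO. All 3 of these low members overlapped between the genotypes. RefSeq lists named copies of some members (Ndufs5-ps, Ndufs6b, Ndufb4b, Ndufb4c, Ndufa11b and Ndufa12-ps), none of which has a row in the expression table. The sources used here do not give how reads shared with such copies were counted, so the levels of Ndufs5, Ndufs6, Ndufb4, Ndufa11 and Ndufa12 are uncertain.

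Core subunits were not the most abundant members. Their WT means had a median of 275 FPKM, with Ndufs8 lowest at 148, while the 28 accessory subunits ran from 21.9 to 961 with a median of 252. By module, WT medians were 230 FPKM for the 7 genes of the N module, 317 for 9 of the Q module, 210 for 9 of the proximal membrane arm and 340 for 10 of the distal membrane arm. The N module was the narrowest, from 156 FPKM for Ndufs4 to 290 for Ndufs1. Along the order of all 37, neighbours were mostly not separable: in 6 of 36 neighbouring pairs did every WT library of the higher gene exceed every WT library of the lower one. Those steps were Ndufa4 over Ndufa3, Ndufb9 over Ndufb8, Ndufb4 over Ndufa5, Ndufb5 over Ndufb10, Ndufs5 over Ndufa11 and Ndufa11 over Ndufa4l2.

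**Figure D1:**
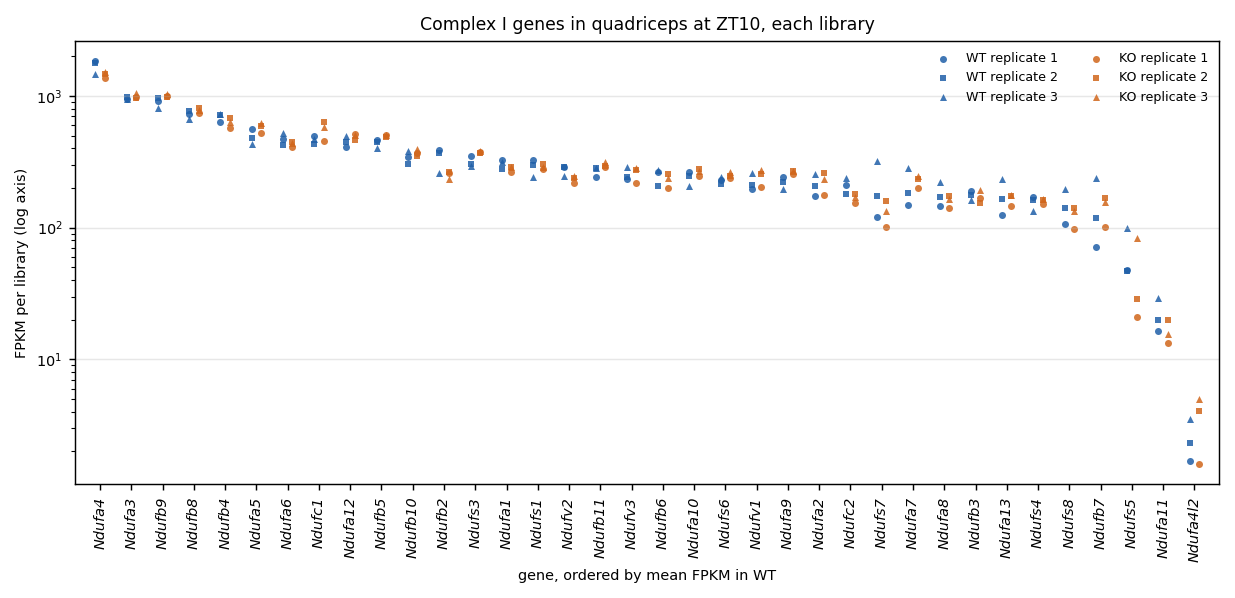
FPKM of 36 of the 37 genes in each of the 6 libraries (log axis), ordered by mean FPKM in WT, with WT libraries in blue and KO libraries in orange and a marker shape per replicate. Most members lie above 100 FPKM with the libraries of both genotypes close together, while Ndufs7, Ndufb7 and Ndufs5 spread widely between libraries of 1 genotype.

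The regions around the transcription starts of these genes were read next, because promoters of genes for the respiratory chain are known for a small set of recurring motifs. RefSeq start regions (build GRCm38.p6, 250 bases before to 50 bases after the start) were matched by symbol for 32 of the 37 members. Both strands were searched for AAGATGGC (the YY1 motif), CCGGAAG (ETS factors, among them GABPA), GCATGCGC (NRF1), AAGGTCA (estrogen-related receptors, ERR) and TGACGTCA (the cAMP response element, CRE). The YY1 letters were in 7 of 32 members (21.9%), against 6.05% of the 7076 tested genes with a start region. In all 7 the motif lay on the strand that reads as the RNA, with its first base within the first 40 bases of the transcript. That position is shared by 2.81% of tested genes and was singled out after the matches were seen. The ETS letters were in 4 of 32 members (12.5%, against 21.9% of tested genes), the NRF1 letters in 3 (9.38%, against 6.60%), the ERR letters in 3 (9.38%, against 4.03%) and the CRE letters in 3 (9.38%, against 3.97%). These are matches of letters, and no binding at them was measured here.

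The YY1 letters contain ATG, and whether that is a start codon of translation in these genes was not examined. Windows around them are printed because, of the motifs searched, these letters had the highest share among members relative to other tested genes. Each runs 5′ to 3′ on the strand that reads as the RNA, with the motif in capitals. The first base of the motif lies 23 to 39 bases into the transcript, counted from 1 at the start.
Ndufc1 (chr3:51408915-51408944, minus strand): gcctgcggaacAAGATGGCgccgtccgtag
Ndufa9 (chr6:126849097-126849126, minus strand): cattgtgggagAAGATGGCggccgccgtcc
Ndufa3 (chr7:3617384-3617413, plus strand): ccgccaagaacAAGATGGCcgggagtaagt
Ndufs7 (chr10:80249462-80249491, plus strand): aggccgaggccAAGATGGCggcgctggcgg
Ndufs6 (chr13:73328433-73328460, minus strand): gggtcaccggcAAGATGGCggcggtgct
Ndufs4 (chr13:114388045-114388070, minus strand): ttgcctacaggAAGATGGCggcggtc
Ndufb8 (chr19:44555393-44555415, minus strand): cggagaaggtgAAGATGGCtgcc
The 7 genes with these letters belong to every module, and they did not share a direction between genotypes: their log2 differences ran from -0.54 for Ndufs7 to 0.26 for Ndufa9, with a median of 0.11.

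The ERR half-site letters are shown because Esrrg, which encodes ERR gamma, differed between the genotypes (below). No longer ERR site was searched for. The half-site letters lay 228, 181 and 55 bases before the starts of Ndufs5, Ndufb2 and Ndufb4, on the opposite strand in Ndufs5.
Ndufs5 (chr4:123718397-123718425, minus strand): tttctcgagtgTGACCTTgctcaagtagc
Ndufb2 (chr6:39592373-39592401, plus strand): ggagcagcagtAAGGTCAgccaagagcac
Ndufb4 (chr16:37654406-37654434, minus strand): tcctgagcctgAAGGTCAgactcgagagg
These 3 genes had log2 differences of -0.69, -0.39 and -0.14, none of them called. Ndufb2 also holds the CRE letters, 14 bases before its start. Since it had 1 of the lowest unadjusted p-values among members that were lower in KO, the 200 bases before its start (chr6:39592365-39592564, plus strand) are printed with both motifs in capitals.
Ndufb2: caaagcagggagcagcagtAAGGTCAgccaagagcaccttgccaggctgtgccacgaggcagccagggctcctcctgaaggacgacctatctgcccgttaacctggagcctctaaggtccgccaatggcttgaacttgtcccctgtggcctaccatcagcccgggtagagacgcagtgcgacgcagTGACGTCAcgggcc

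Between WT and KO no complex I gene passed the threshold in limma, a linear model fitted over all tested genes with Benjamini-Hochberg adjustment, called here at an adjusted p under 0.05. None of the 37 was called as higher, against 3.04% of all 9204 tested genes, and none as lower, against 1.67%. At an unadjusted p under 0.05 there were 4 (10.8%), 2 higher and 2 lower, against 21.5% of all tested genes. In the authors' deposited table, at a q-value under 0.05, none of the 37 was listed as higher (5.9% of all tested genes) and 1 as lower (4.94%), Ndufs7. At an unadjusted p under 0.05 it held 4 members as lower (10.8%), near the 10.6% of all tested genes, and none as higher, against 11.7%. The median log2 difference of the members, on the log2(FPKM + 1) scale as all differences here, was 0.04, beside 0.01 over all tested genes and 0.09 over the 549 tested genes with a WT mean of 100 FPKM or more. In direction 21 members were higher and 16 lower, and the median turned to -0.0059 (18 higher, 19 lower) with libraries scaled to their FPKM sum and to -0.00066 without WT replicate 1. Without WT replicate 2, the library with the neutrophil markers, no member was called and the median was 0.05. That fit called only 14 of all tested genes as higher and 6 as lower, so no call among the members says little.

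Most members were measured closely enough to bound the difference. The 95% interval of 27 of 37 members (73.0%) lay within 1.5-fold in either direction. The same held for 56.0% of all tested genes and 59.4% of those with a WT mean of 100 FPKM or more. It held for 63.3% of those at or above the WT mean of Ndufa11. All 7 N-module genes were among the 27 members. So were 6 of 9 in the Q module, 5 of 9 in the proximal and 8 of 10 in the distal membrane arm. The libraries of 5 members (13.5%) lay all higher in KO, against 15.6% of tested genes, and those of 2 members (5.41%) all lower, against 12.4%. The first were Ndufa9, Ndufb5, Ndufb9, Ndufb11 and Ndufs3, and the second were Ndufc2 and Ndufv2. Neither share stood above that of all tested genes.

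**Figure D2:**
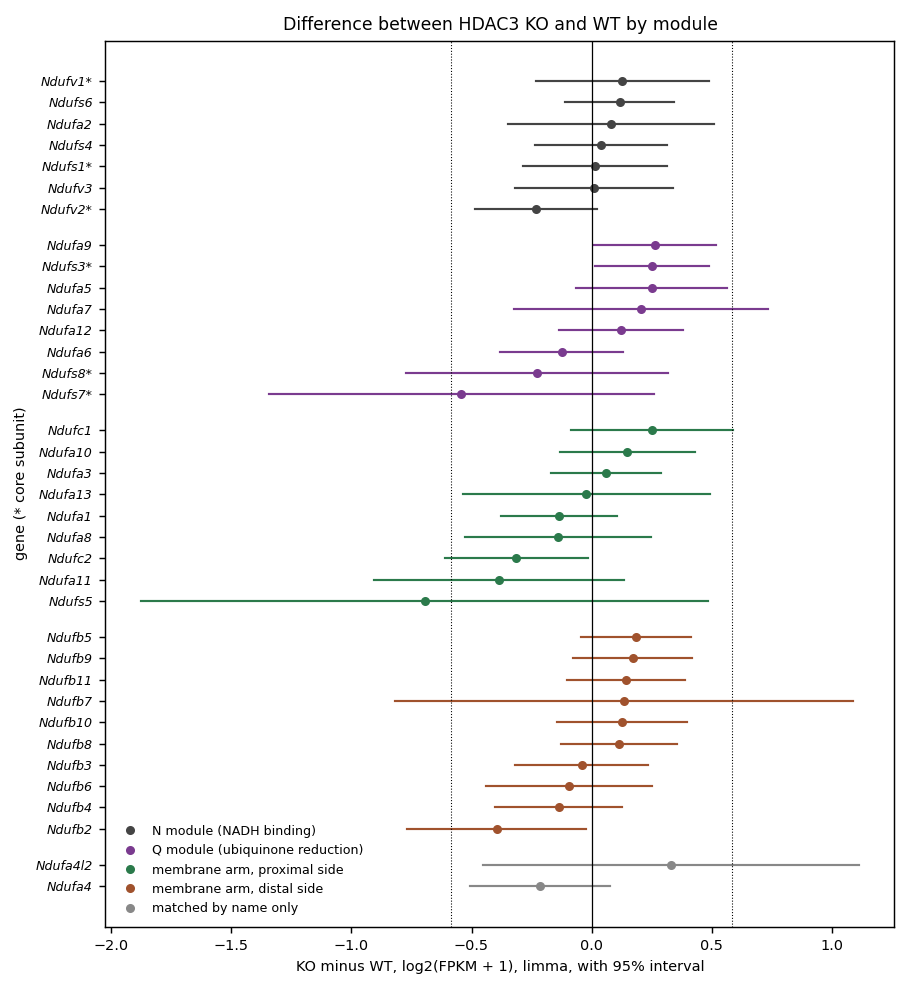
Difference between KO and WT in log2(FPKM + 1) for 36 of the 37 genes (points) with its 95% interval from limma (lines), grouped and coloured by module, with core subunits starred and dotted lines at 1.5-fold. The 7 N-module intervals lie inside the dotted lines, and the widest intervals belong to Ndufs5, Ndufb7, Ndufs7 and Ndufa4l2.

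In the N module, which binds NADH and passes its electrons to the first iron-sulphur clusters, none of 7 members was called. The differences of 6 were above 0 and that of 1 below, but this became 3 and 4 with libraries scaled to their FPKM sum or without KO replicate 2. Ndufv1 holds the flavin that accepts the electrons. It was at 197, 213 and 260 FPKM in WT and 203, 257 and 273 in KO, which overlap (0.13 ± 0.15 SE). Ndufs1, the largest core subunit, was at 328, 297 and 244 FPKM in WT and 278, 305 and 290 in KO, with KO inside the WT range (0.01 ± 0.13 SE, and -0.031 with libraries scaled to their FPKM sum). Ndufv2, the partner of Ndufv1, was the only member of the module lower in KO, at 289, 291 and 247 FPKM in WT and 217, 239 and 246 in KO. Its libraries did not overlap, by a margin of less than 1 FPKM between WT replicate 3 and KO replicate 3 (-0.23 ± 0.11 SE, adjusted p = 0.275). The accessory subunits Ndufa2, Ndufs4, Ndufs6 and Ndufv3 had differences of 0.08, 0.04, 0.12 and 0.01.

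The Q module, where electrons reach ubiquinone, held the 2 members with an unadjusted p under 0.05 that were higher in KO, and the gene with the authors' call. Its 9 differences were above 0 in 5 and below 0 in 4. Ndufs3 was at 349, 306 and 295 FPKM in WT and 378, 370 and 381 in KO, every KO library above every WT library (0.25 ± 0.10 SE, limma adjusted p = 0.207). Ndufa9, an accessory subunit that helps to hold the matrix arm to the membrane arm, was at 245, 222 and 197 FPKM in WT and 254, 271 and 270 in KO, also without overlap (0.26 ± 0.11 SE, adjusted p = 0.215). Ndufa5 was at 565, 478 and 429 FPKM in WT and 523, 595 and 628 in KO, and overlapped in KO replicate 1 (0.25 ± 0.13 SE, adjusted p = 0.333). Ndufs8, which carries iron-sulphur clusters on the way to ubiquinone, was at 107, 141 and 195 FPKM in WT and 97.1, 140 and 134 in KO, which overlap (-0.23 ± 0.23 SE).

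Ndufs7 carries the last iron-sulphur cluster before ubiquinone, and it is the member on which the deposited call and limma differ. It was at 120, 174 and 321 FPKM in WT replicates 1, 2 and 3 and at 100, 160 and 134 in KO. WT replicate 3 was the highest by far, and WT replicate 1 lay below both KO replicate 2 and KO replicate 3. The WT mean was 1.56 times the KO mean (205 ± 104 against 132 ± 29.9, SD, n = 3), and the authors' deposited table gives q = 0.00213. Limma gave a log2 difference of -0.54 ± 0.34 SE with an adjusted p of 0.413 and a 95% interval from -1.34 to 0.26. Without WT replicate 3 the WT mean was 147 FPKM, or 1.12 times the KO mean, and without WT replicate 1 it was 1.88 times the KO mean. Of the 37 members, Ndufs7 was the only one with a q-value under 0.05 in the authors' deposited table.

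In the proximal membrane arm 6 of 9 members were lower in KO and 3 higher, with a median of -0.14, the lowest of the 4 module medians. Without WT replicate 3 the balance was 5 higher and 4 lower, with a median of 0.02. Ndufc2 was at 210, 181 and 239 FPKM in WT and 154, 179 and 171 in KO, without overlap but with WT replicate 2 and KO replicate 2 less than 2 FPKM apart. Its difference was -0.31 ± 0.13 SE with an adjusted p of 0.212. Ndufc1, from the same region of the complex, was on the other side, at 501, 428 and 472 FPKM in WT and 459, 639 and 583 in KO (0.25 ± 0.14 SE). Ndufa11 had -0.39 ± 0.22 SE (adjusted p = 0.370) and Ndufs5 -0.69 ± 0.51 SE (adjusted p = 0.479), the lowest difference of all members. The fold of Ndufs5 moved with single libraries: the WT mean was 1.46 times the KO mean, 1.07 times without WT replicate 3, 1.15 times without KO replicate 1 and 2.59 times without KO replicate 3. Ndufa13, also known as GRIM-19, had -0.02 ± 0.22 SE, Ndufa8 -0.14, Ndufa1 -0.14, Ndufa10 0.15 and Ndufa3 0.06.

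In the distal membrane arm, which is far from the NADH site and holds most of the Ndufb subunits, 6 of 10 members were higher in KO and 4 lower. Ndufb5 was at 463, 447 and 403 FPKM in WT and 503, 487 and 503 in KO, without overlap (0.19 ± 0.10 SE, adjusted p = 0.323), and Ndufb9, given above, differed by 0.17 ± 0.11 SE. Ndufb2 was at 387, 367 and 261 FPKM in WT and 262, 264 and 235 in KO, so that WT replicate 3 lay within the KO range and the other WT libraries above it. Its difference was -0.39 ± 0.16 SE with an adjusted p of 0.209. Without WT replicate 3 it was -0.57 with an adjusted p of 0.0416, the single limma call of a member in any of the fits run. Ndufb7 had equal means, 143 ± 85.7 FPKM in WT and 142 ± 35.3 in KO (SD, n = 3), over the widest relative spread of any member in WT. Without WT replicate 3 the WT mean was 0.668 times the KO mean. Of the remaining members of this arm, Ndufb4 was at -0.14, Ndufb6 at -0.10 and Ndufb3 at -0.04, and Ndufb8, Ndufb10 and Ndufb11 were at 0.11, 0.13 and 0.14. Outside the complex, Ndufa4 had -0.22 ± 0.12 SE (adjusted p = 0.370) and Ndufa4l2 0.33 ± 0.34 SE (adjusted p = 0.621).

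Several members differed more between libraries of 1 genotype than between the genotype means, with the same libraries high and low. Ndufb7 was at 71.2, 119 and 238 FPKM in WT replicates 1, 2 and 3 and at 102, 168 and 157 in KO. Ndufa7, of the Q module, was at 148, 183 and 282 FPKM in WT and 202, 236 and 247 in KO. Ndufa13 was at 124, 164 and 234 FPKM in WT and 146, 174 and 179 in KO. In all of these WT replicate 3 was the highest of the WT libraries and KO replicate 1 the lowest of the KO libraries. In all, 9 of 37 members (24.3%) were 1.5-fold or more higher in WT replicate 3 than in WT replicate 1, against 13.4% of all tested genes and 14.2% of those with a WT mean of 100 FPKM or more. They were Ndufb7, Ndufs7, Ndufa4l2, Ndufs5, Ndufa7, Ndufa13, Ndufs8, Ndufa11 and Ndufa8. No member was 1.5-fold lower. The same ratio was reached by 3 of 9 genes of complex III (33.3%) and by 7 of 43 genes of complexes II, III, IV and ATP synthase together (16.3%). These 9 were grouped after their values were seen and carry no test.

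WT replicate 3 was the highest WT library in all 9 of these genes, KO replicate 1 was the lowest KO library in all 9, and the genotypes overlapped in all 9. The 9 were picked by the ratio of WT replicate 3 to WT replicate 1, which largely sets their order and spread in WT. KO values were not used in that choice. Their coefficient of variation (SD as a share of the mean) in WT was 21.2% to 60.2%. The other 28 members were at 2.35% to 20.0%, a split that follows largely from the choice. Of those 28, the 95% interval lay within 1.5-fold for 25, with differences from -0.39 to 0.26. Over all 37 members KO replicate 1 was the lowest of the KO libraries in 29, where 36.5% of all tested genes had their lowest KO value in that library. It was also the lowest KO library in most of the 43 genes of complexes II, III, IV and ATP synthase. This trait is therefore not particular to complex I. Across the members, the log2 ratio of replicate 3 to replicate 1 in WT and the same ratio in KO had r = 0.592 (37 genes that share their libraries and are not independent), while over 9152 tested genes it was 0.0948. The GC content of the start region, which had a median of 58.8% in 32 members and 61.0% in tested genes, had r = 0.0668 with the WT ratio. KO replicate 1 was the shallowest library, at 0.660 times the depth of WT replicate 1, close to KO replicate 3 at 0.674. KO replicate 3 was the lowest KO library in 1 member. WT replicate 3 was the deepest, at 1.02 times the depth of WT replicate 1. The part of depth in this pattern was not tested.

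**Figure D3:**
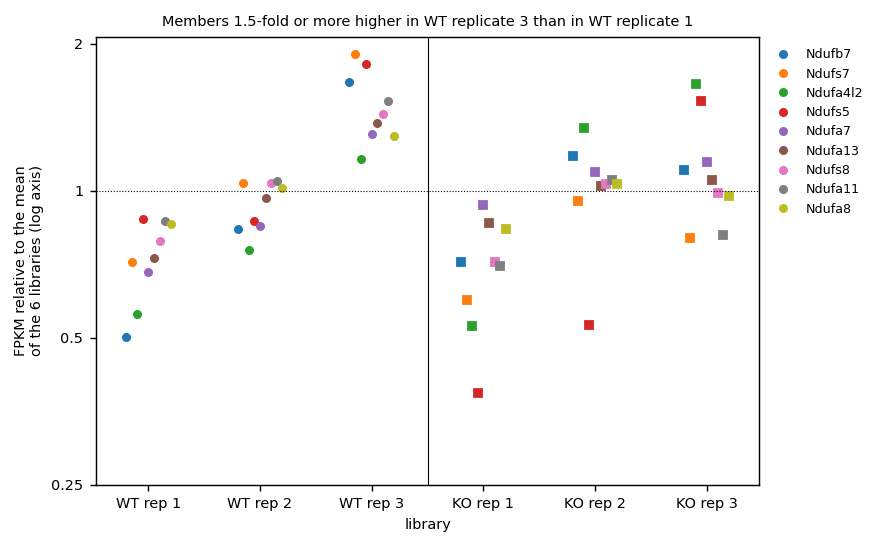
FPKM of the 9 members that were 1.5-fold or more higher in WT replicate 3 than in WT replicate 1, each divided by its mean over the 6 libraries (log axis), with WT libraries as circles and KO libraries as squares. All 9 are highest among WT libraries in replicate 3, which their choice largely sets. All 9 are lowest among KO libraries in replicate 1, and the genotypes overlap.

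Complex I is put together from preformed modules by assembly factors. Of 20 assembly factor genes, all tested, limma called 1 as higher and none as lower, against 3.04% and 1.67% of all tested genes. At an unadjusted p under 0.05 limma had 3 higher and 1 lower (20%, near the 21.5% of all tested genes). The authors' deposited table also listed 1 as higher and none as lower by q-value, and 2 higher and 1 lower at an unadjusted p under 0.05. The gene called by both was Tmem70, whose product helps to build ATP synthase and is also counted among the factors for complex I. It was at 48.1, 41.6 and 35.7 FPKM in WT and 78.9, 80.0 and 79.0 in KO. Every KO library was above every WT library, a log2 difference of 0.92 ± 0.12 SE with an adjusted p of 0.0148 (q = 0.00119 in the authors' deposited table). The adjusted p was 0.0754 without WT replicate 2, 0.0548 without KO replicate 1 and 0.0606 without KO replicate 3, with the difference at 0.92 in each. At the low end of the list, Ndufaf2, which acts late in assembly, was at 9.21, 15.2 and 11.4 FPKM in WT and 6.20, 8.20 and 8.10 in KO, without overlap (-0.59 ± 0.19 SE, adjusted p = 0.128). The list had a median difference of 0.13. Ndufab1, the mitochondrial acyl carrier protein that is built into complex I, was at 81.3, 86.1 and 89.8 FPKM in WT and 79.2, 110 and 96.2 in KO (0.14 ± 0.13 SE).

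The neighbouring complexes of the respiratory chain had no limma call either. Limma called none of 43 subunit genes of complexes II, III, IV and ATP synthase. At an unadjusted p under 0.05 it had 1 higher and 1 lower (4.65%, against 21.5% of all tested genes). The authors' deposited table listed 1 as lower, Atp5g1 (q = 0.0256, limma log2 difference of -0.42 ± 0.18 SE, adjusted p = 0.228). The median difference of the 43 genes was 0.04, the same as for complex I at this precision. By complex the medians were 0.16 for 4 genes of complex II, 0.02 for 9 of complex III, 0.02 for 14 of complex IV and -0.0044 for 16 of ATP synthase. Ndufa4, with a WT mean of 1697 FPKM and a difference of -0.22, was left out of the complex IV list. The 4 differences of complex II ran from 0.05 for Sdha to 0.23 for Sdhd, with no call. In WT, complex I subunits had a lower median level (256 FPKM) than those of complexes III, IV and ATP synthase (416, 695 and 814 FPKM), and near that of complex II (296 FPKM). These lists were described and not tested against each other.

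Among regulators of mitochondrial genes there were calls. Of 11 tested regulators of 14 listed, limma called 2 as higher, Tfam and Esrrg, and none as lower. The shares of all tested genes were 3.04% and 1.67%. By q-value the authors' deposited table listed 3 as higher, with Tfb2m as the other one, and none as lower. Its shares of all tested genes were 5.9% and 4.94%. At an unadjusted p under 0.05 limma had 3 higher and none lower (27.3%, against 21.5% of all tested genes). The list was chosen with earlier results of these data known. Tfam, which packages and transcribes mitochondrial DNA, rose from 15.3, 15.8 and 14.8 FPKM in WT to 26.2, 30.0 and 25.9 in KO (0.79 ± 0.10 SE, adjusted p = 0.0141). Esrrg rose from 6.70, 6.85 and 5.87 FPKM to 13.9, 12.0 and 16.7 (1.01 ± 0.14 SE, adjusted p = 0.0154). Without WT replicate 2 the adjusted p was 0.0695 for Tfam and 0.0754 for Esrrg. Without KO replicate 3 it was 0.0507 for Tfam and 0.0546 for Esrrg, and without KO replicate 1 it was 0.0569 for Esrrg. Esrra, which encodes ERR alpha, had the lowest difference of the list and the library pattern of Ndufs7, at 12.1, 16.3 and 38.9 FPKM in WT and 8.06, 14.4 and 15.2 in KO (-0.66 ± 0.41 SE, adjusted p = 0.405). Among 8 genes of other routes for NADH and quinone electrons limma called none. At an unadjusted p under 0.05 it had 1 higher and 1 lower (25%, against 21.5% of all tested genes). The ends of that list were Gpd2, of the glycerol phosphate shuttle, at 0.47 ± 0.13 SE (adjusted p = 0.0875, and q = 0.0166 in the authors' deposited table) and Sqrdl, which oxidizes sulphide, at -0.37 ± 0.10 SE (adjusted p = 0.0845).

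**Figure D4:**
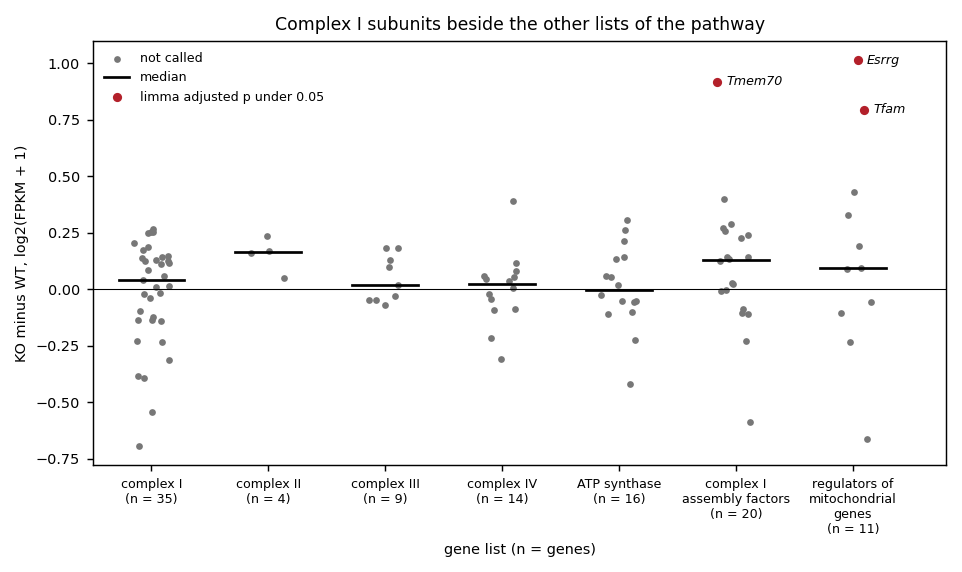
Difference between KO and WT in log2(FPKM + 1) for each gene (points) of complex I, of the other respiratory complexes, of the complex I assembly factors and of the regulators, with the median of each list as a bar and genes called by limma in red. The 35 complex I subunits lie between -0.69 and 0.26 around a median of 0.04, and the genes in red are Tmem70, Tfam and Esrrg.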

How the data were processed

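The authors deposited 1 table with FPKM for each of 6 RNA-seq libraries, each group's mean FPKM, and the p-value and q-value of every gene. The submitters' processing notes name TopHat2, Cuffdiff and the mm9 build as what the authors used to make the FPKM. Versions, annotation, strandedness and library scaling were not stated. Of 14 samples in the series 6 entered. The peak lists are on mm9 and the gene positions at hand on GRCm38, so peaks were not used here. Genes with a deposited p-value under 1 were tested (9204), each with a mean of at least 1.94 FPKM in its higher group. Limma 3.58.1 in R 4.3.3 with a mean-variance trend was fitted to log2(FPKM + 1), two-sided, with Benjamini-Hochberg adjustment over all tested genes and a threshold of 0.05. The log scale understates the change of low genes. The fit was tested on simulated data. Read numbers are not in the files, so no counting intervals are given. The members and gene lists were chosen with earlier results of these data known. Members given in every library are the core subunits (1 member counts in all totals but is not reported here), those with a call, the 4 lowest unadjusted p-values in each direction, the 3 highest and lowest levels and both genes matched by name only; Ndufb7, Ndufa7, Ndufa13 and Ndufc1 were added after their values were seen. The alternatives tried were other pseudocounts (0.1 and 5 FPKM), filters, scalings, no trend, the replicate block, the authors' q-value and each library left out. Counts per module under other scalings and without each library were added after seeing the data.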

Additional observations from a re-analysis of the deposited data

How the results depend on the processing

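No member was called as higher under any of the 15 alternatives, and 1 was called as lower under 2 of them: Ndufb2 without WT replicate 3 (range without a library 0 to 1) and Ndufs7 by the authors' q-value (1, log2 ratio of means -0.64). The members' median stayed between -0.0059 and 0.08 (0.04 as reported). Among the 17 members given in every library by rule, signs turned only in Ndufs1 (-0.031 and -0.0089 with libraries scaled to their sum or by the median ratio, and -0.10 to 0.11 without a library). Over all tested genes, 280 higher and 154 lower became 152 and 95 without a filter, 543 and 455 by the authors' q-value, and 14 to 186 and 6 to 106 without a library, the fewest without WT replicate 2. Calls were 64.5% higher, and 53.8% with libraries scaled to their FPKM sum. With the replicate block they were 34 and 18, with no member called. Under the block the 1 call among assembly factors became 0 (0 to 1 without a library), and Tfam and Esrrg had adjusted p = 0.0534 and 0.0579. Deviations of same-numbered libraries had r of -0.0029, 0.047 and 0.049 over all tested genes, and not every library correlated best with its own number. Over the 37 members, which are not independent, the same r were 0.631, 0.043 and 0.457. The sources used here do not give whether same-numbered libraries belong together, and these values cannot decide it. Other respiratory complexes had 1 call by the authors' q-value and 0 to 1 without a library. Hdac3 kept its call throughout. The cause of these changes was not tested. Read numbers are not in the files, so what depth limits was not measured per gene.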

Other observations

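Nnt, the transhydrogenase that couples NADH to NADPH in the mitochondrial inner membrane, was at 25.4, 6.40 and 5.76 FPKM in WT replicates 1, 2 and 3 and at 7.57, 7.85 and 11.3 FPKM in KO. WT replicate 1 stood above all the other libraries, and limma did not call the difference (-0.17 ± 0.49 SE, adjusted p = 0.88). This gene was chosen after its values were seen.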
